A study of Homo sapiens with 6 samples.

Results

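The genes described here encode non-collagenous glycoproteins and proteoglycans of the extracellular matrix, together with the enzymes and the chaperone that modify and crosslink collagen. They are 51 named genes, with collagen chains and laminins left out, and all 51 were found among the 33890 genes of the deposited table. They were measured in LN229, an established human cell line from a grade IV glioma, grown in DMEM with fetal bovine serum. Polyadenylated RNA was sequenced in 6 libraries: 3 from untreated control cells (LN229-NC1 to NC3) and 3 from cells given ursodeoxycholic acid (UDCA, LN229-U1 to U3) at 800 µM for 48 h. UDCA is a hydrophilic bile acid, prescribed for cholestasis. The series' title places the comparison in work on UDCA against glioblastoma. All libraries come from a single cell line in culture, without stroma or vessels, and the labels name no vehicle for the controls. Nothing says that the libraries of a group are separate cultures, so p-values measure the spread between these libraries, which may be technical.

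The matrix around brain tumour cells differs from that of most organs, because normal brain holds little fibrillar collagen and much hyaluronan with its bound proteoglycans. Glioma cells add adhesive glycoproteins such as fibronectin, tenascin-C and SPARC, which cells bind through integrins or which modulate that binding. Collagen is hydroxylated on proline and lysine in the endoplasmic reticulum and folds with the chaperone HSP47. Outside the cell, lysyl oxidases oxidise lysines of collagen and elastin, which then crosslink into stable fibres. Syndecans and glypicans carry heparan sulfate on the cell surface, where they bind matrix proteins and growth factors.

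Most of the measured matrix genes were lower in the treated libraries. SPARC, THBS2, VCAN, NID1 and LOXL2 fell between 4.60-fold and 15.1-fold, and FN1 fell 1.70-fold. A smaller set rose: SDC4, P4HA2, BGN, LTBP1, BCAN and MFAP2 went up between 2.80-fold and 11.7-fold. TNC was at 151 ± 3.16 FPKM in control and 156 ± 1.43 FPKM with UDCA (mean ± SD, n = 3), a difference the test did not call. FPKM are reads per kilobase of exon scaled to the depth of the library. The length is that of all annotated exons of a gene merged, which can exceed that of the transcript made. Levels, ranks and sums across genes therefore depend on that length, while the fold change of a gene does not.

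Of the 51 genes, 39 reached 1 FPKM in at least 3 libraries and were tested with limma on log2(FPKM + 1), with p-values adjusted by the Benjamini-Hochberg method across the 14380 genes that met this minimum. At an adjusted p under 0.05, 36 of the 39 were called, where 80.8% of all genes tested were called in this comparison. Of them 26 were lower (66.7% of the tested members, against 35.7% of all genes tested) and 10 were higher (25.6%, against 45.1%). A change of at least 1 on the log2 scale was seen in 19 lower members, where 12.0% of all genes tested met that rule, and in 6 higher members, where 12.3% did. In 37 members the control and UDCA libraries did not overlap, beside 82.8% of all genes tested. The median change of the tested members was -0.99 on the log2 scale and that of all genes tested was 0.095. MGP, BCAN and MFAP2 passed the minimum through 1 group alone. Among the 36 members at 1 FPKM or more in every library, 25 were lower, 8 higher and 3 not called. At a log2 change of at least 1, 18 of these 36 were lower and 4 higher. Counts by role group below are to be read beside the shares of all genes tested given here.

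**Figure D1:**
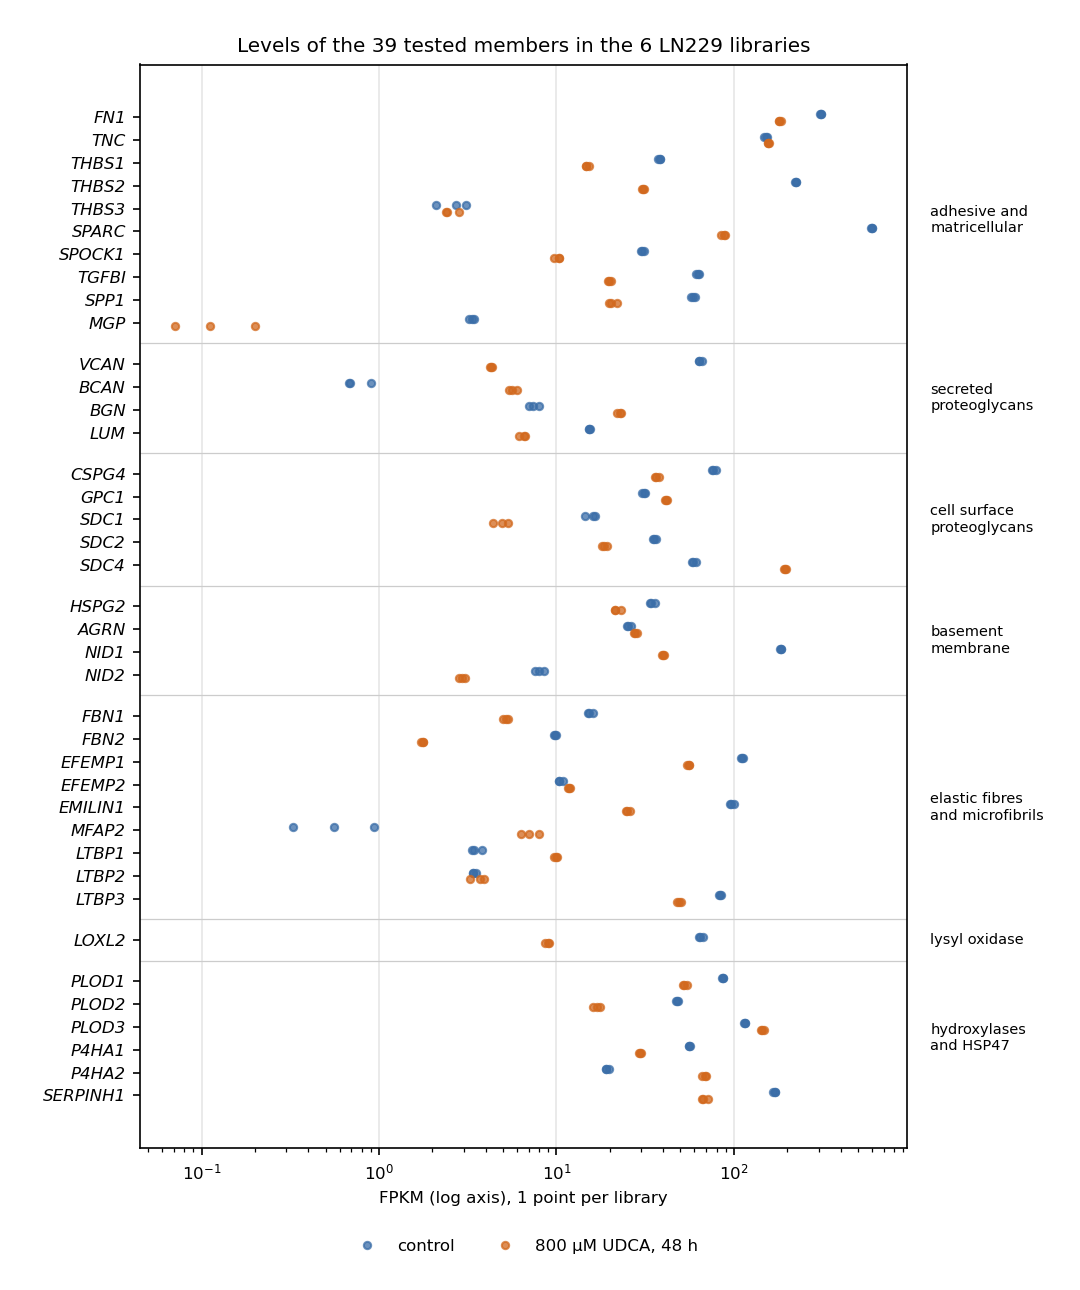
Level in FPKM (horizontal log axis) of each of the 39 tested members (rows, grouped by role), with 1 point per library, blue for the 3 control and orange for the 3 UDCA libraries. SPARC has the highest control points, at 594 to 603 FPKM, and the orange points of SDC4, P4HA2, BGN, LTBP1, BCAN and MFAP2 lie to the right of the blue ones.

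The libraries held 15988951 to 17743022 reads recovered from the deposited values. Mitochondrially encoded genes took 3.13% to 3.16% of reads in control and 0.0263% to 0.0271% with UDCA. Of the glial markers, S100B, SOX2, NES, VIM, CD44, EGFR and OLIG2 were above 2 FPKM in every library, while GFAP, SOX9 and AQP4 were under 1 FPKM throughout. The summed level of the 12 glial markers was 752 to 768 FPKM in control and 166 to 168 with UDCA, with 6 lower and 1 higher. S100B, NES, SOX2 and VIM made up most of that difference, and OLIG2 was not called (log2 change 0.06). The part of these markers or of the mitochondrial reads in the results was not tested. Summed over their lists, 5 immune markers stayed at or below 0.564 FPKM and 6 endothelial markers at or below 1.01 FPKM in every library, with each marker under 1 FPKM. Fibroblast and pericyte markers (5 genes) summed to 3.97 to 4.86 FPKM in control and 3.33 to 3.86 with UDCA, but the genes did not move together. PDGFRB was called higher (1.70 ± 0.159 and 2.92 ± 0.247 FPKM; SD, n = 3), RGS5 was called lower (1.45 ± 0.238 and 0.493 ± 0.0621), COL1A1, untested, was at 1.08 ± 0.220 and 0.127 ± 0.0166, and COL1A2 and COL3A1 were near 0. Neuronal markers (5 genes) summed to 21.1 to 21.7 and 9.38 to 10.3 FPKM. In bulk libraries, fewer cells that make a transcript and less of it per cell cannot be told apart.

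Adhesive and matricellular glycoproteins were lower or uncalled, and none was higher. Of 13 genes 10 were tested, 8 were lower and 2 were not called, with a median log2 change of -1.48. SPARC (chromosome 5, 151661096 to 151687165, GRCh38) encodes a collagen-binding glycoprotein that loosens cell adhesion and was the most abundant member in control. Its level was 594, 602 and 603 FPKM in the control libraries and 88.1, 84.6 and 89.7 FPKM in the UDCA libraries. Every treated library was far below every control library. SPARC fell 6.85-fold (log2 change -2.76, SE 0.0250, limma adjusted p = 8.14e-10), and it went from 20.3% to 20.5% of the members' summed FPKM in the control libraries to 5.63% to 5.88% in the treated ones. An antisense-strand gene, CLMAT3, shares 7.89% of its exon bases, and how the authors counted strand is not given in the sources used here.

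Thrombospondins are large secreted glycoproteins that bind cells, calcium and other matrix proteins. THBS2 (chromosome 6, 169215780 to 169254044) was at 224, 222 and 225 FPKM in control and 30.5, 30.8 and 31.2 FPKM with UDCA. It fell 7.25-fold (log2 change -2.82, SE 0.0182, limma adjusted p = 2.66e-10). The related THBS1, an activator of latent TGF-beta, was at 38.5, 37.2 and 38.5 FPKM in control and at 14.7, 15.2 and 14.6 FPKM with UDCA. THBS1 fell 2.57-fold, less than THBS2 did, and both sets of libraries were well apart. THBS3 was weakly expressed, at 3.11, 2.70 and 2.11 FPKM in control and 2.38, 2.83 and 2.42 FPKM with UDCA. Its groups overlapped, and the log2 change was -0.03 with a 95% interval from -0.30 to 0.24 (limma adjusted p = 0.806). Opposite-strand genes, MTX1 among them, cover 25.4% of the THBS3 exons.

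Fibronectin and tenascin-C, both large adhesive glycoproteins, did not move alike. FN1 (chromosome 2, 215360440 to 215436172), the fibronectin gene, was at 310.2, 308 and 310.2 FPKM in control and 181, 180.4 and 185 FPKM with UDCA. It fell 1.70-fold (log2 change -0.76, SE 0.0182, limma adjusted p = 4.73e-08) and still ranked second among the 51 in both groups. TNC, which encodes the tenascin-C enriched around glioma cells and vessels, was at 153, 147 and 153 FPKM in control and 155, 155 and 158 FPKM with UDCA. The treated libraries lay above the control libraries by a small margin: the log2 change was 0.05, with a 95% interval from -0.0044 to 0.098 (limma adjusted p = 0.0807). With libraries scaled by the median ratio of genes its change was -0.06 (adjusted p = 0.0353), and voom on recovered reads called it higher (0.05, adjusted p = 0.00992), so no direction is given for it.

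TGFBI, SPOCK1 and SPP1 fell by about the same factor, and MGP by more. TGFBI, a TGF-beta-induced protein that binds collagens and integrins, fell 3.16-fold from 62.8 ± 1.20 to 19.9 ± 0.502 FPKM (mean ± SD, n = 3 here and below). SPOCK1, a testican proteoglycan of the SPARC family, fell 3.00-fold from 30.4 ± 0.460 to 10.1 ± 0.373 FPKM. SPP1, which encodes osteopontin, an integrin ligand, fell 2.85-fold from 59.0 ± 1.76 to 20.7 ± 1.02 FPKM. None of these 3 genes had a treated library that reached a control library. MGP, the inhibitor of calcification matrix Gla protein, was listed at 3.42, 3.33 and 3.22 FPKM in control and at 0.0711, 0.111 and 0.201 FPKM with UDCA, on 452 and 17 reads in all. Its fall on the log2(FPKM + 1) scale was -1.94, which understates the 26.0-fold ratio of means.

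**Figure D2:**
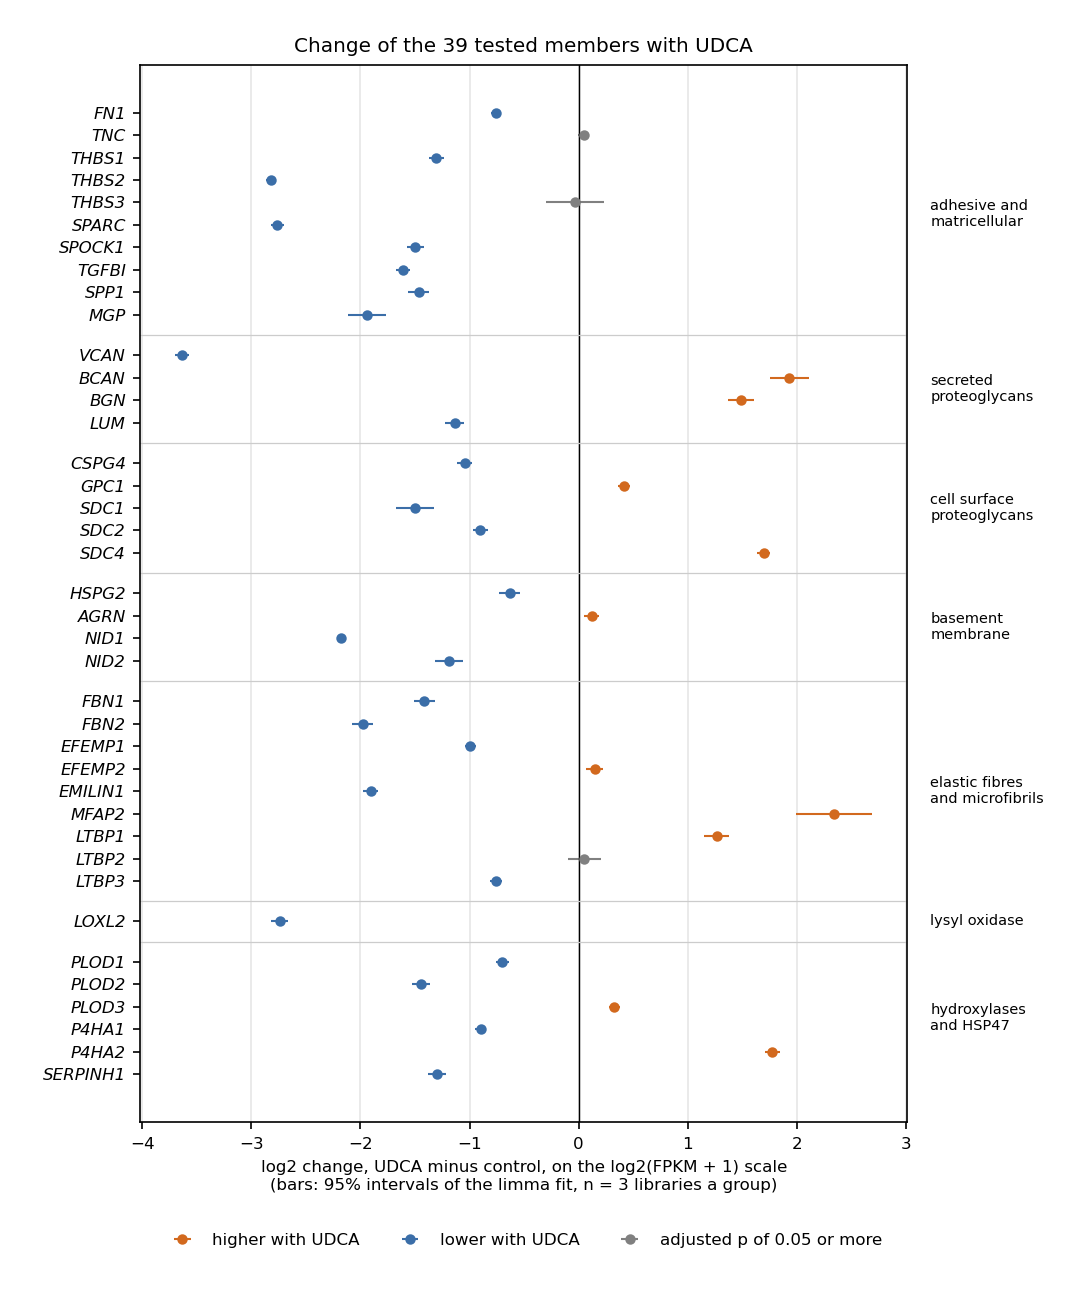
Log2 change with UDCA (horizontal axis, difference of mean log2(FPKM + 1), treated less control) of each tested member, with 95% intervals of the limma fit over 3 libraries a group; orange is higher, blue lower and grey not called. VCAN lies furthest left at -3.64 and MFAP2 furthest right at 2.34; AGRN and EFEMP2, just right of 0, lose their call when libraries are scaled by the median ratio of genes.

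The secreted proteoglycans split, with 2 of 4 tested members lower and 2 higher. Lecticans are chondroitin sulfate proteoglycans that bind hyaluronan and make up much of the brain's matrix. Versican, encoded by VCAN (chromosome 5, 83471465 to 83582303), was at 63.8, 63.8 and 66.1 FPKM in control and 4.25, 4.31 and 4.28 FPKM with UDCA. VCAN fell 15.1-fold (log2 change -3.64, SE 0.0264, limma adjusted p = 3.78e-10), on 49422 and 3173 reads. That is the largest fall of a tested member on the log2(FPKM + 1) scale; MGP fell more by the ratio of means, with a pseudocount of 0.1 (-3.95 against -3.88) and with voom on recovered reads (-4.68 against -3.92). Brevican, the brain-specific lectican encoded by BCAN (chromosome 1, 156641390 to 156659532), went the other way, from 0.683, 0.896 and 0.674 FPKM in control to 5.40, 5.60 and 6.03 FPKM with UDCA. The control libraries held few BCAN reads (191, against 1402 with UDCA), and the groups were clearly separate. BCAN rose 7.56-fold (log2 change 1.93, SE 0.0734, limma adjusted p = 4.37e-07), and opposite-strand genes cover 13.8% of the BCAN exons.

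Small leucine-rich proteoglycans bind collagen fibrils and limit their width. BGN (chromosome X, 153494939 to 153509554), the biglycan gene, was at 7.40, 6.97 and 7.97 FPKM in control and 23.1, 21.8 and 22.9 FPKM with UDCA, a rise of 3.04-fold (log2 change 1.48, SE 0.0498, limma adjusted p = 2.41e-07). LUM, the lumican gene, was at 15.5, 15.3 and 15.3 FPKM in control and 6.65, 6.53 and 6.13 FPKM with UDCA, a fall of 2.39-fold (limma adjusted p = 2.01e-07). So biglycan was the lower of the pair in every control library and the higher in every treated one. DCN, for the related decorin, did not reach 1 FPKM: it was at 0.881 ± 0.0637 and 0.171 ± 0.0138 FPKM. Neuroglycan C, encoded by CSPG5, was also under the minimum, at 0.573 ± 0.0437 and 0.0971 ± 0.0405 FPKM.

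Among the cell surface proteoglycans 3 of 5 were lower and 2 higher, and this was the sole role group with a higher summed level in the UDCA libraries, at 296 ± 4.29 FPKM against 218 ± 3.56. SDC4 made up most of that sum with UDCA. Syndecan-4, its product, is a heparan sulfate proteoglycan of focal adhesions. SDC4 (chromosome 20, 45325288 to 45348424) was at 58.0, 58.8 and 61.1 FPKM in control and at 192, 193 and 198 FPKM with UDCA. It rose 3.28-fold (log2 change 1.70, SE 0.0255, limma adjusted p = 6.57e-09) and moved from rank 16 of the 51 members to rank 1. The other syndecans listed were lower. SDC1 (chromosome 2, 20200797 to 20225433), best known from epithelia and plasma cells, was at 14.5, 16.5 and 16.0 FPKM in control and 4.40, 5.30 and 4.97 FPKM with UDCA. SDC1 fell 3.20-fold (log2 change -1.50, SE 0.0714, limma adjusted p = 1.38e-06). SDC2, a syndecan of mesenchymal cells, fell 1.91-fold from 35.6 ± 0.575 to 18.6 ± 0.571 FPKM. GPC1, a glypican held by a lipid anchor, rose 1.34-fold from 31.0 ± 0.419 to 41.6 ± 0.657 FPKM (limma adjusted p = 3.07e-06). CSPG4, the NG2 proteoglycan of oligodendrocyte progenitors and many gliomas, fell 2.09-fold from 76.9 ± 1.94 to 36.7 ± 0.839 FPKM.

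The promoters of 2 pairs of members that moved in opposite directions are printed as examples that do not represent all lower or higher members. They are the syndecan genes SDC1 (lower) and SDC4 (higher) and the microfibril genes FBN2 (lower) and MFAP2 (higher). Each run is the 250 bases before the RefSeq start, 5′ to 3′ on the gene's strand, from GRCh38.p14; none of these windows holds an exon of GENCODE 29. Capitals mark matches on either strand to any of 6 motifs: the TATA box (TATAAA), the CCAAT box (CCAAT), the GC box (GGGCGG), the AP-1 site (TGANTCA), a C/EBP-ATF site (TGATGNAA) and the hypoxia response core (ACGTG). Overlapping matches were counted, so the palindrome in FBN2 that reads the same on both strands gives 2 matches to the hypoxia response core. The windows lie at chr2:20225476-20225725 (SDC1), chr20:45348425-45348674 (SDC4), chr5:128538246-128538495 (FBN2) and chr1:16981584-16981833 (MFAP2), all on the minus strand. The FBN2 start used by RefSeq lies inside the longer gene of GENCODE 29. The MFAP2 start used by RefSeq lies upstream of the GENCODE 29 gene, whose 5′ end is at base 16980835, so the MFAP2 window does not adjoin that end.
SDC1: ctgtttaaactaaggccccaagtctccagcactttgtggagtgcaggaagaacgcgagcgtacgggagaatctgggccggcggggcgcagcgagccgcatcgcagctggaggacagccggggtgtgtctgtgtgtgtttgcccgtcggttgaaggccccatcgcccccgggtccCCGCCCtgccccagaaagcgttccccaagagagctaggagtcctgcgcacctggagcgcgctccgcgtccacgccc
SDC4: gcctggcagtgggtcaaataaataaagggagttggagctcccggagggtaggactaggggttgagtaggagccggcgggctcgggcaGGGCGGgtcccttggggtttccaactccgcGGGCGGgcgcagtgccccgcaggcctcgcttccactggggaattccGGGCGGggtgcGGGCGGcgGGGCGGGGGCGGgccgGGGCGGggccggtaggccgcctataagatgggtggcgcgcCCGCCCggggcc
FBN2: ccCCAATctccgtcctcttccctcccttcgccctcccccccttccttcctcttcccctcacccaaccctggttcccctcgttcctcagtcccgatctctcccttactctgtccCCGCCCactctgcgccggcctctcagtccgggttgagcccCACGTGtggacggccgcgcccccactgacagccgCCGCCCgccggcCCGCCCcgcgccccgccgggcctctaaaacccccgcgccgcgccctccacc
MFAP2: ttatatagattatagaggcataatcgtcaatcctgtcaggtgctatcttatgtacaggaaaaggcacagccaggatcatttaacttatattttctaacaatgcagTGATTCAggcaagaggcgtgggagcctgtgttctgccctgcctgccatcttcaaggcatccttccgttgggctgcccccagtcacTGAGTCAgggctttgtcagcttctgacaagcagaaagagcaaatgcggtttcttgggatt

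The SDC4 window held 8 GC boxes and that of SDC1 held 1, at G and C contents of 73.6% and 66.4%. Of the 4 windows that of MFAP2 had the most A and T, with 46.8% G and C, no GC box and 2 AP-1 matches, while FBN2 had 72.8% G and C. Of the 51 members, 41 had a promoter in the RefSeq table. A GC box was present in 28 of the 41 (68.3%) and in 42.3% of all 27305 promoter windows, and the median G and C content was 69.6% against 58.0%. The 27305 windows were not limited to protein-coding genes or genes tested here, so they are not a matched set. Of the 41 member windows, 13 held no exon of GENCODE 29. GC boxes were found in 13 of 19 lower members and in 6 of 9 higher ones with a promoter. The median G and C content of these lower and higher members was 70.0% and 73.6%, well above that of the MFAP2 window. An AP-1 match was found in 0 of the 19 lower and in 1 of the 9 higher members, MFAP2. For the AP-1 site the count was 2 of 41 (4.88%, against 6.60% of all), for the CCAAT box 13 (31.7%, against 33.0%), for the hypoxia response core 6 (14.6%, against 18.7%) and for the TATA box 5 (12.2%, against 11.1%). No member window held the C/EBP-ATF letters, which 3.19% of all windows did. A match describes letters in the window and does not show binding.

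Basement membranes are thin sheets in which nidogens and perlecan link laminin to collagen IV. Of 4 such members 3 were lower and 1 higher. NID1 (chromosome 1, 235975830 to 236065162), nidogen-1, was at 182, 185 and 184 FPKM in control and 39.8, 39.4 and 40.4 FPKM with UDCA. It fell 4.60-fold (log2 change -2.17, SE 0.0188, limma adjusted p = 6.80e-10). NID2, its weaker relative here, fell 2.72-fold from 8.02 ± 0.491 to 2.94 ± 0.109 FPKM, though the opposite-strand gene RTRAF covers 30.0% of the NID2 exons. HSPG2, which encodes perlecan, fell 1.57-fold from 34.5 ± 1.18 to 21.9 ± 0.980 FPKM, and opposite-strand genes cover 11.7% of its exons. AGRN, for the heparan sulfate proteoglycan agrin, was at 24.9, 25.4 and 26.3 FPKM in control and 27.5, 27.6 and 28.3 FPKM with UDCA. Its treated libraries were all above its control libraries by a small margin, and it was called higher (log2 change 0.12, limma adjusted p = 0.00642). That call was lost with median-ratio scaling (log2 change 0.01, adjusted p = 0.744).

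Elastic fibres consist of elastin on a scaffold of fibrillin microfibrils, and latent TGF-beta binding proteins attach to that scaffold. Of 13 such members 9 were tested: 5 were lower, 3 higher and 1 was not called. Fibrillin genes fell, FBN1 2.99-fold from 15.5 ± 0.558 to 5.19 ± 0.174 FPKM and FBN2 5.62-fold. FBN2 was at 9.81, 9.75 and 10.0 FPKM in control and 1.72, 1.76 and 1.78 FPKM with UDCA (log2 change -1.98, SE 0.0396, limma adjusted p = 2.14e-08). EMILIN1 (chromosome 2, 27078567 to 27086408), a glycoprotein at the interface of elastin and microfibrils, fell 3.85-fold from 97.2 ± 2.79 to 25.2 ± 0.581 FPKM. In contrast to the fibrillins, the microfibril-associated glycoprotein gene MFAP2 was at 0.557, 0.937 and 0.329 FPKM in control and 6.35, 7.95 and 6.97 FPKM with UDCA. MFAP2 rose 11.7-fold (log2 change 2.34, SE 0.146, limma adjusted p = 5.56e-06), on 91 and 1036 reads, and has the widest interval of the called members.

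The latent TGF-beta binding proteins went 3 ways. LTBP1 was at 3.36, 3.43 and 3.80 FPKM in control and 9.75, 10.0 and 9.94 FPKM with UDCA, a rise of 2.80-fold (log2 change 1.27, SE 0.0478, limma adjusted p = 4.23e-07). LTBP3, the most abundant of them in both groups, fell 1.70-fold from 83.6 ± 1.10 to 49.1 ± 1.02 FPKM. LTBP2 was at 3.38, 3.41 and 3.54 FPKM in control and 3.27, 3.89 and 3.69 FPKM with UDCA. Its groups overlapped, and the 95% interval of its log2 change ran from -0.10 to 0.20 (limma adjusted p = 0.450). Of the fibulins, EFEMP1 (fibulin-3) fell 2.01-fold from 111 ± 1.51 to 55.6 ± 0.695 FPKM. EFEMP2 (fibulin-4), needed for elastin crosslinking, stood at 10.5 ± 0.273 and 11.7 ± 0.121 FPKM and was called higher (log2 change 0.15, limma adjusted p = 0.00385). The EFEMP2 call was lost with median-ratio scaling (0.04, adjusted p = 0.231) and with quantile normalization (0.05, adjusted p = 0.163).

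LOXL2 was the single listed lysyl oxidase above the minimum. This copper enzyme oxidises lysines of collagen and elastin so that they crosslink. Its level was 66.8, 64.9 and 63.3 FPKM in control and 9.12, 8.58 and 8.92 FPKM with UDCA. LOXL2 fell 7.32-fold (log2 change -2.74, SE 0.0320, limma adjusted p = 2.05e-09). LOX, LOXL1 and LOXL4 were all under 0.5 FPKM in every library. LOX was at 0.477, 0.335 and 0.498 FPKM in control and 0.248, 0.307 and 0.085 FPKM with UDCA, on 125 and 59 reads.

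The enzymes that hydroxylate collagen, and HSP47, were all well expressed: 4 of 6 were lower and 2 higher. Collagen prolyl 4-hydroxylases stabilise the triple helix, and their catalytic subunits moved in opposite directions. P4HA1 (chromosome 10, 73007217 to 73096974) was at 56.5, 55.6 and 55.7 FPKM in control and 29.2, 29.6 and 29.8 FPKM with UDCA, a fall of 1.89-fold (limma adjusted p = 3.81e-08). P4HA2 (chromosome 5, 132191838 to 132295315) was at 19.8, 18.9 and 19.0 FPKM in control and 66.3, 68.6 and 69.6 FPKM with UDCA. It rose 3.54-fold (log2 change 1.77, SE 0.0287, limma adjusted p = 8.71e-09). In FPKM, P4HA1 was the higher subunit in every control library and P4HA2 in every treated one. The order in control depends on the merged exon lengths, 3093 bases for P4HA1 and 8502 for P4HA2. Control reads were nearly equal, at 8926 and 8431, against 4574 and 29001 with UDCA. An antisense gene covers 6.45% of the P4HA2 exon bases.

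Lysyl hydroxylases prepare lysines for crosslinks and for sugars. PLOD2, which acts on the collagen telopeptides, fell 2.82-fold from 47.7 ± 0.539 to 16.9 ± 0.788 FPKM, and PLOD1 fell 1.63-fold from 86.7 ± 0.592 to 53.1 ± 1.52 FPKM. PLOD3, which also adds glucose to hydroxylysine that carries galactose, rose 1.26-fold (log2 change 0.33, SE 0.0209, limma adjusted p = 6.26e-06). It was at 116, 113 and 116 FPKM in control and 144, 142 and 147 FPKM with UDCA. SERPINH1 (chromosome 11, 75562056 to 75572783), the collagen chaperone HSP47, was at 167, 171 and 170.2 FPKM in control and 66.0, 67.2 and 71.7 FPKM with UDCA. It fell 2.48-fold (log2 change -1.30, SE 0.0330, limma adjusted p = 6.35e-08), with the groups far apart.

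The 12 members under the minimum were all below 1 FPKM in every library, and no call is made for them. Besides DCN, CSPG5 and the 3 lysyl oxidases they were SPARCL1, SMOC1, POSTN, FBLN1, FBLN2, FBLN5 and ELN. POSTN, for the integrin ligand periostin, was at 0.825, 0.830 and 0.877 FPKM in control and 0.149, 0.204 and 0.237 FPKM with UDCA, on 238 and 54 reads. Fibulin genes were low and uneven: FBLN1 had 157 control and 29 UDCA reads, FBLN2 had 6 and 87, and FBLN5 had 14 and 3. ELN, the elastin gene itself, had 5 and 35 reads, so the transcript of the fibre's main protein was near the floor of detection in both groups. SMOC1 and SPARCL1, both relatives of SPARC, had 18 control reads each, against 9 and 1 with UDCA. LOXL1 had 19 and 22 reads and LOXL4 had 28 and 2.

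Summed over all 51 members, the level was 2936 ± 14.0 FPKM in control and 1513 ± 20.4 FPKM with UDCA, 1.94 times lower. The members took 2.20% ± 0.0139 and 1.15% ± 0.0163 of all recovered reads, and no library of either group came near the other group on these sums. The adhesive group made up most of that difference, at 1481 ± 5.62 and 525 ± 7.13 FPKM. The order of members changed with it. In control the highest means were those of SPARC, FN1, THBS2, NID1 and SERPINH1. With UDCA they were those of SDC4, FN1, TNC, PLOD3 and SPARC, and P4HA2 had moved from rank 26 to rank 7. VCAN dropped out of the 20 highest, to 4.28 ± 0.0306 FPKM. These ranks depend on the merged exon lengths. With UDCA, SDC4 had 25398 reads over 2613 bases and FN1 had 157672 reads over 17315 bases.

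**Figure D3:**
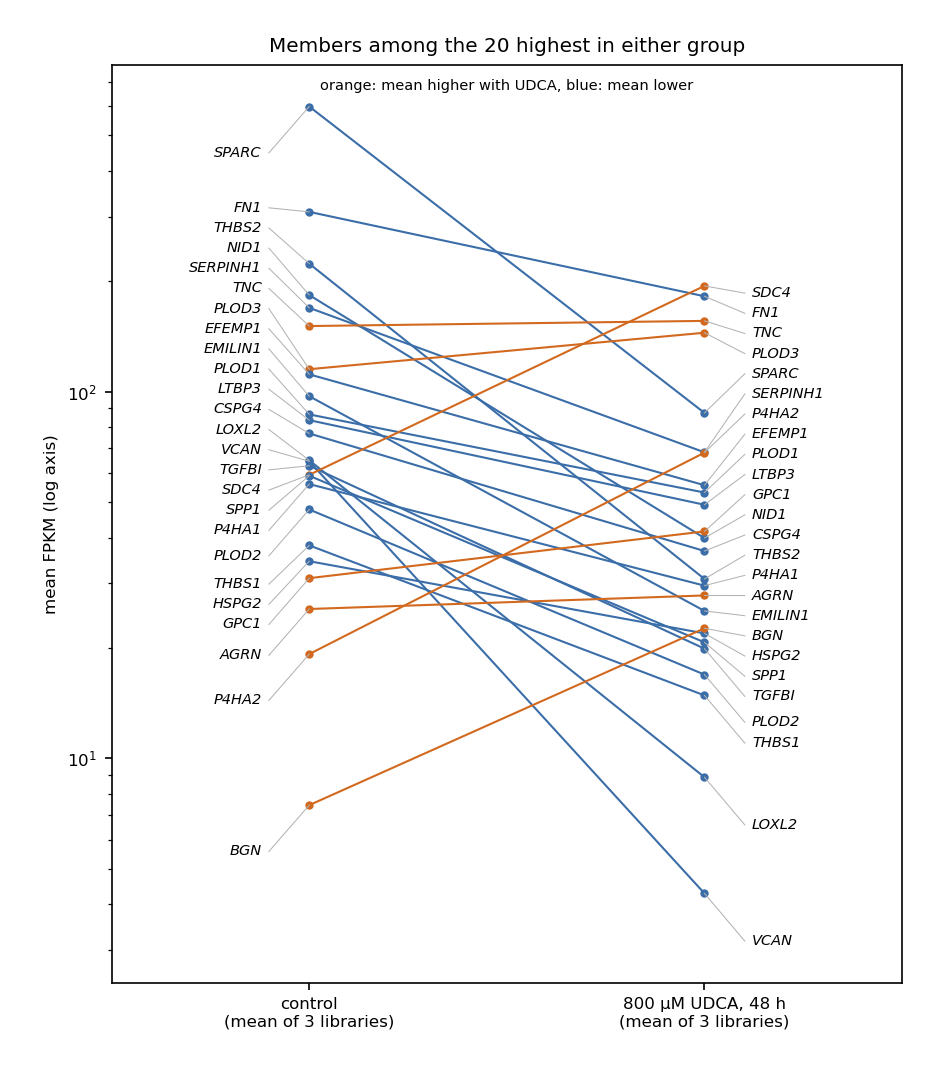
Mean FPKM over 3 libraries (vertical log axis) of the members that were among the 20 highest in either group, control on the left and UDCA on the right, with orange lines where the mean was higher with UDCA and blue where it was lower. SPARC starts highest at 599.6 FPKM and ends at 87.5, SDC4 ends highest at 194, and TNC, whose small difference was not called and changes sign with the scaling, is nearly level.

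Ratios between related members within a library do not depend on how libraries are scaled to each other. They were taken for 12 pairs chosen after the values were seen, so they are descriptions, and an exact permutation test of 3 against 3 libraries cannot go below p = 0.1. BCAN stood at 0.0102 to 0.0140 of the VCAN level in control and at 1.27 to 1.41 times that level with UDCA. The ratio of P4HA2 to P4HA1 went from 0.341 to 0.350 in control to 2.27 to 2.33 with UDCA, and that of BGN to LUM from 0.454 to 0.522 to 3.34 to 3.74. These 3 FPKM ratios crossed 1, but where a ratio lies against 1 depends on the merged exon lengths, and its change between groups does not. By reads, BCAN stayed below VCAN with UDCA (1402 and 3173). P4HA2 and P4HA1 were nearly equal by reads in control (8431 and 8926). BGN and LUM changed order by reads too, from 943 and 2383 in control to 2773 and 968 with UDCA. SDC4 was 1.60 to 1.74 times SDC2 in control and 10.1 to 11.0 times SDC2 with UDCA. TNC was 0.479 to 0.493 of FN1 in control and 0.851 to 0.860 with UDCA. NID1 to NID2 was the 1 ratio of the 12 that came out lower with UDCA, at 12.9 to 14.0 against 21.6 to 24.0; which gene is on top in each pair was chosen.

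**Figure D4:**
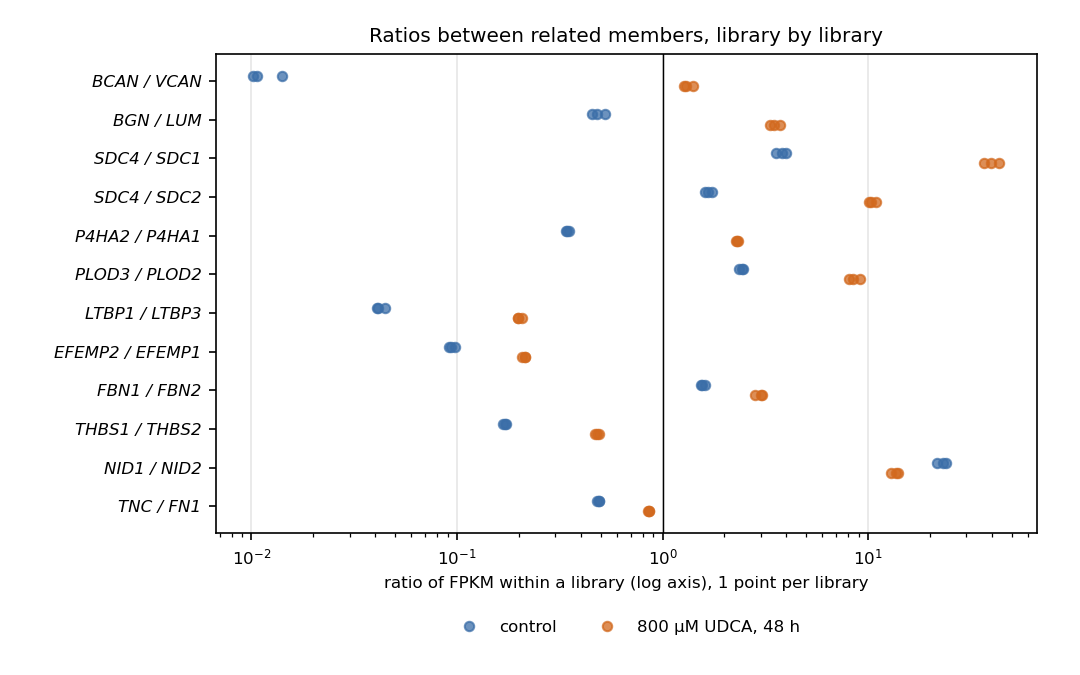
Ratio of the FPKM of related members within each library (horizontal log axis) for 12 pairs, with 1 point per library, blue for control and orange for UDCA; the vertical line marks a ratio of 1. No pair overlaps between groups, and BCAN to VCAN moves furthest, from 0.0102 to 0.0140 up to 1.27 to 1.41.

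Other genes of the matrix were taken from 3 lists of 138 genes, of which 129 were in the table and 80 were tested. Of these 53 were lower, 23 higher and 4 not called, with a median log2 change of -0.46, beside 35.7% of all genes tested lower and 45.1% higher. Of the 80, 12 were under 1 FPKM in some library, in each case in the group where the gene was lower. Among the other 68 genes, 44 were lower, 20 higher and 4 not called, with a median of -0.40. Among other matrix glycoproteins and proteoglycans, 20 of 27 tested genes were lower and 6 higher, with a median of -0.90; of the 20 at 1 FPKM or more in every library, 15 were lower and 4 higher. HMCN1, for the giant basement membrane protein hemicentin-1, fell 14.5-fold from 36.6 ± 0.281 to 2.53 ± 0.0334 FPKM. FREM2, of the complex that anchors epithelia to basement membrane, fell 11.0-fold from 32.9 ± 0.370 to 2.98 ± 0.166 FPKM, and TINAGL1, a laminin-binding glycoprotein, fell 9.09-fold from 35.3 ± 0.329 to 3.88 ± 0.202 FPKM. SRGN, the intracellular granule proteoglycan serglycin, rose 2.09-fold from 37.0 ± 1.16 to 77.4 ± 0.982 FPKM. NTN4, a netrin that binds laminin, rose 2.05-fold and CRIM1, a membrane protein that binds BMPs, rose 1.65-fold.

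In the list of other collagen processing and crosslinking enzymes, 13 of 19 tested genes were lower (68.4%) and 5 higher (26.3%), with a median of -0.30. Of all genes tested, 35.7% were lower and 45.1% higher. Without ADAMTS3, the gene under 1 FPKM in some library, 12 of 18 were lower. LOXL3, a lysyl oxidase that was above the minimum, fell 3.35-fold from 61.0 ± 0.992 to 18.2 ± 0.614 FPKM, and opposite-strand genes cover 19.3% of its exons. TGM2, the tissue transglutaminase, fell 2.85-fold from 18.1 ± 0.333 to 6.36 ± 0.166 FPKM, and ADAMTS3, a procollagen N-propeptidase, fell 4.48-fold, from 2.29, 2.35 and 2.08 FPKM to 0.567, 0.474 and 0.460 FPKM, having passed the minimum through the control libraries alone. Among the genes that rose, MIA3, which loads procollagen into carriers at the endoplasmic reticulum, went up the most, 2.20-fold from 9.33 ± 0.272 to 20.6 ± 0.345 FPKM. SEC23A, a coat protein of those carriers, rose 2.18-fold from 9.73 ± 0.177 to 21.2 ± 0.756 FPKM, and the prolyl isomerase gene FKBP10 rose 1.39-fold.

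Glycosaminoglycan synthesis enzymes build the sugar chains of the proteoglycans above, and this list also holds genes of hyaluronan synthesis. Of 34 tested genes 20 were lower (58.8%, against 35.7% of all genes tested) and 12 higher (35.3%, against 45.1%), with a median of -0.24. Of the 30 at 1 FPKM or more in every library, 17 were lower and 11 higher. EXTL1, of the exostosin family that elongates heparan sulfate, was at 77.9, 75.7 and 79.4 FPKM in control and 1.56, 1.86 and 1.39 FPKM with UDCA, a fall of 48.5-fold. CSGALNACT1, which starts chondroitin chains, fell 8.93-fold from 14.2 ± 0.281 to 1.59 ± 0.0647 FPKM, and the heparan sulfotransferase gene HS3ST3A1 fell 3.52-fold. UST, a uronyl sulfotransferase of chondroitin and dermatan sulfate, rose 4.83-fold from 1.30 ± 0.239 to 6.25 ± 0.172 FPKM. CHST11, a chondroitin 4-sulfotransferase, rose 2.21-fold from 7.78 ± 0.115 to 17.2 ± 0.417 FPKM. B4GALT7, which adds a sugar to the linker of chondroitin, dermatan and heparan sulfate chains, rose 1.86-fold.

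**Figure D5:**
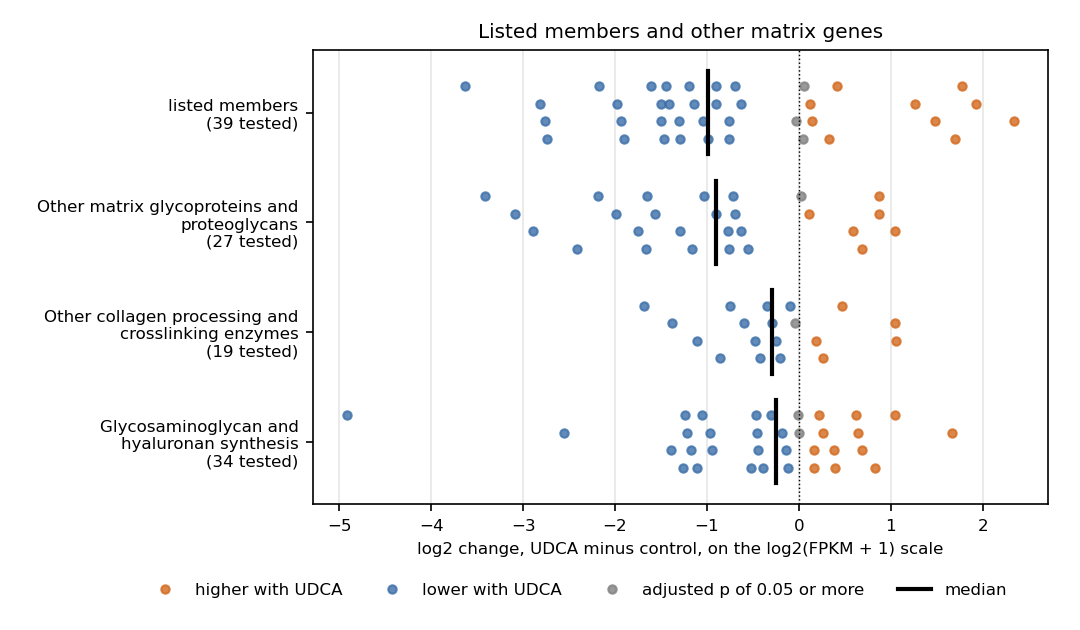
Log2 change with UDCA (horizontal axis, log2(FPKM + 1) scale) of each tested gene among the listed members and the 3 lists of other matrix genes, with 1 point per gene and a black line at each median; vertical offsets within a row separate the points. The medians are -0.99, -0.90, -0.30 and -0.24 from top to bottom, and EXTL1 lies furthest left.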

How the data were processed

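Libraries were made with the Illumina TruSeq RNA kit, per the labels' protocols. HISAT2, Bowtie2 2.0.6 and the build GRCh38 appear, without roles, in the submitters' processing notes. Which program counted reads, and whether by strand, is not given in the sources used here. Values deposited by the authors are FPKM. That unit was inferred: each value times the gene's merged exon length in GENCODE 29 was a whole multiple of 1 step per library, within 0.01 reads, for 100% of values. Those whole numbers were taken as reads (or read pairs). A count of 3 reads over 1 kb equals 0.169 to 0.188 FPKM, for counting error only. Totals carry no scaling for composition.

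Gene symbols, positions and exon overlaps came from GENCODE 29. A minimum of 1 FPKM in 3 or more libraries selected the genes tested. They were tested with limma 3.58.1 (trend) in R 4.3.3 on log2(FPKM + 1), UDCA against control, 2-sided, adjusted by the Benjamini-Hochberg method (threshold 0.05). Folds are ratios of mean FPKM. Python 3.11.15, pandas 2.3.3 and matplotlib 3.10.9 made tables and figures. Promoter windows came from RefSeq (GRCh38.p14). Protein sequences were not used here.

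The members and lists were chosen with earlier results of these data known. All tested members are named; each other list gives the called genes with the 3 largest log2 changes in each direction, where the higher group averaged 2 FPKM or more. Alternatives were median-ratio scaling, quantile normalization, no minimum, a pseudocount of 0.1, voom on recovered reads, a replicate block, and leaving out each library.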

Additional observations from a re-analysis of the deposited data

How the results depend on the processing

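Of 39 tested members, 34 kept their direction and their side of the threshold under all 12 alternatives; the exceptions were AGRN and EFEMP2, which lost their calls as given above, and the uncalled TNC, THBS3 and LTBP2. Median-ratio scaling moved the median of all genes from 0.095 to 0.002, the members' median from -0.99 to -1.10, TNC to -0.064, LTBP2 to -0.033, AGRN to 0.01 and EFEMP2 to 0.04; it left 8 members higher and 27 lower, and 3 genes higher among the other collagen processing enzymes in place of 5. The cause was not tested. The change of THBS3 ran from -0.14 without control replicate 3 to 0.0014 without UDCA replicate 1 and 0.060 without control replicate 1. With no minimum level, 11 members were higher and 32 lower, and 13 other matrix glycoproteins were higher in place of 6, since more genes were tested. Leaving out each library in turn gave 10 members higher and 26 lower each time, with a median of -1.0002 to -0.981. The replicate block also gave 10 higher and 26 lower. Libraries with the same number did not deviate together (correlations of 0.0143, -0.0012 and 0.0072), and no control library correlated best with its own number, so the numbers were not taken as pairs.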

Other observations

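Link proteins of the HAPLN family clamp lecticans onto hyaluronan, and their genes lie beside lectican genes in the genome. These pairs were looked at after their values were seen, and each pair holds a gene below the minimum. They are given without a test of the pairing. VCAN and HAPLN1 lie 55.5 kb apart on chromosome 5. VCAN fell 15.1-fold, and HAPLN1 was at 0.346, 0.217 and 0.438 FPKM in control, on 120 reads, while no HAPLN1 read was found with UDCA. Setting the UDCA group to a floor of 3 reads in all, HAPLN1 was at least 38.8-fold lower. ACAN, the aggrecan gene, and HAPLN3 lie 1.93 kb apart on chromosome 15. HAPLN3 was at 9.64, 10.5 and 9.50 FPKM in control and 1.14, 0.899 and 1.09 FPKM with UDCA (log2 change -2.41, limma adjusted p = 8.56e-08, with 1 UDCA library under 1 FPKM), and ACAN, under the minimum, was at 0.975 ± 0.102 and 0.250 ± 0.0367 FPKM (SD, n = 3). BCAN and HAPLN2 lie 15.7 kb apart on chromosome 1. BCAN rose 7.56-fold, and HAPLN2 was at 0.134, 0.156 and 0.0754 FPKM in control and 0.223, 0.314 and 0.289 FPKM with UDCA, on 14 and 31 reads. For the fourth pair there is no comparison: NCAN had 2 control reads and 1 UDCA read, and HAPLN4 was not found by its symbol in the deposited table. In the 3 pairs with values both genes were on the same side. None of these 6 genes overlapped between groups, but neither did 82.8% of all genes tested, so this says little about the pairs. HAPLN1, ACAN and HAPLN2 were not tested, and BCAN passed the minimum through the UDCA libraries alone.

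The neighbours LUM and DCN, 28.7 kb apart on chromosome 12, were both lower with UDCA in mean level, DCN under the minimum. HAS2, the synthase of long hyaluronan chains to which lecticans bind, was at 1.65, 1.19 and 1.51 FPKM in control and 0.0597, 0.0420 and 0.0141 FPKM with UDCA. It passed the minimum through the control libraries alone, with 8 UDCA reads in all, and its means are under the 2 FPKM asked of named genes. The other synthase genes were not tested: HAS3 was at 0.657 ± 0.113 and 0.155 ± 0.0496 FPKM, and HAS1 had 2 control and 3 UDCA reads.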
